A study of Mus musculus with 6 samples.

Results

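The chemokine CXCL12 with its receptors, and the cytokine MIF with its homologue and receptor, were examined in coronary endothelial cells (ECs) that had lost *Wt1*. The group was set by gene symbol and holds 7 of the 55416 genes in the count table: *Cxcl12*, *Cxcr4*, *Ackr3*, *Mif*, *Ddt*, *Cd74* and *Ackr2*. All 7 passed the filter on low counts (at least 10 counts in at least 2 libraries), as did 16296 genes in all. ECs came from the heart ventricles of E15.5 mouse embryos whose dams had received tamoxifen by oral gavage at 75 mg/kg between E11.5 and E13.5. ControlΔEC embryos were Pdgfb(CreERT2/+); Wt1(+/+); R26(mTmG/+), and Wt1KOΔEC embryos were Pdgfb(CreERT2/+); Wt1(loxP/loxP); R26(mTmG/+), so that both genotypes carried the Pdgfb-driven inducible Cre, the mTmG reporter and the tamoxifen. Cells were sorted for mGFP, which marks cells in which the Cre had recombined the reporter, and 3 libraries per genotype were sequenced. They are labelled as biological replicates, and whether one library holds 1 embryo or several is not given in the sources used here.

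CXCL12 is a secreted chemokine that guides migrating cells through the G protein-coupled receptor CXCR4, and in the developing heart this pair is known for guiding the growth of coronary vessels. ACKR3, formerly CXCR7, binds CXCL12 without classical G protein signalling and takes it up, thereby shaping the gradient that CXCR4 reads. MIF is a small cytokine that binds CD74 and, through a chemokine-like fold, also CXCR4, and DDT is its closest homologue. CD74 is known above all as the invariant chain that accompanies MHC class II proteins. ACKR2 is a scavenger of inflammatory CC chemokines and is known from lymphatic endothelium.

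Depth ranged from 26037324 to 44779020 counts per library, and 3 counts, taken as the floor of detection, were worth 0.0608 to 0.119 CPM (counts relative to the TMM-adjusted library size), which covers counting error only. The targeted gene, *Wt1*, was lower in every Wt1KOΔEC library (log2 fold change -2.91, standard error 0.22, edgeR adjusted p = 0.00319). Endothelial transcripts were abundant in both genotypes. The 9 endothelial markers, among them *Pecam1* and *Cdh5*, summed to 5166 to 6451 CPM in ControlΔEC and 5404 to 6211 CPM in Wt1KOΔEC. The erythroid sum given below exceeded the endothelial sum in ControlΔEC replicates 1, 2 and 3 and in Wt1KOΔEC replicates 1 and 3. Transcripts of other cells were also present and differed between libraries. The summed level of 14 macrophage markers ran from 424 to 1150 CPM in ControlΔEC and from 318 to 493 CPM in Wt1KOΔEC, that of 8 mural cell markers from 468 to 635 and from 326 to 382 CPM, that of 8 fibroblast markers from 678 to 982 and from 1346 to 1553 CPM, and that of 7 erythroid markers from 6567 to 14340 and from 5104 to 8490 CPM. Low levels were found for 8 epicardial markers (37.8 to 49.2 and 66.8 to 75.7 CPM) and 8 cardiomyocyte markers (106 to 146 and 85.8 to 192 CPM). The mural, fibroblast and epicardial sums did not overlap between genotypes, whereas the macrophage, erythroid and cardiomyocyte sums did. Of the epicardial estimates 6 were higher in Wt1KOΔEC and 2 lower (median log2 fold change 0.93). Of the erythroid estimates 5 were lower and 2 higher, *Hbb-y* among the latter (2.57). The fibroblast marker *Col1a1* had a log2 fold change of 1.34 (edgeR adjusted p = 0.0441). In bulk libraries such as these, fewer cells of a type and less RNA per cell cannot be told apart. Library identifiers run consecutively within each genotype, so a batch that follows genotype cannot be told apart from it either.

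Sequences just before the transcription start are shown for *Mif*, *Cxcl12* and *Cxcr4*, the members whose libraries did not overlap between genotypes, because the deleted gene encodes a transcription factor that binds GC-rich DNA. Each run is 250 bases long, ends at the start given by RefSeq (table on GRCm38.p6), is written 5′ to 3′ on the gene's strand and was found once, unaltered, on its chromosome in GRCm39. Capitals mark matches, on either strand, to 4 motifs: the GC box GGGCGG, the sequence GCGGGGGCG that WT1 and EGR1 can bind, the cAMP response element TGACGTCA and the TATA box TATAAA.
Mif (chr10:75696112-75696361, minus strand): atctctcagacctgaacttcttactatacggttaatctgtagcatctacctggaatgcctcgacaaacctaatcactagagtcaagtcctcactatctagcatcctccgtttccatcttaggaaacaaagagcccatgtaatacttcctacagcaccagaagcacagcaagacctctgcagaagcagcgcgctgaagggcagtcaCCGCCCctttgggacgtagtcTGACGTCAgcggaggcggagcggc
Cxcl12 (chr6:117145246-117145495, plus strand): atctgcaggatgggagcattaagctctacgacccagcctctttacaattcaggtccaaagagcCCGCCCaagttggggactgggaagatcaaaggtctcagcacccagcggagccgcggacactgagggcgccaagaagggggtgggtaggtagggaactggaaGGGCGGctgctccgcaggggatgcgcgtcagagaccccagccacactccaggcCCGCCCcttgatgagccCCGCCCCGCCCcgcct
Cxcr4 (chr1:128520037-128520286, minus strand): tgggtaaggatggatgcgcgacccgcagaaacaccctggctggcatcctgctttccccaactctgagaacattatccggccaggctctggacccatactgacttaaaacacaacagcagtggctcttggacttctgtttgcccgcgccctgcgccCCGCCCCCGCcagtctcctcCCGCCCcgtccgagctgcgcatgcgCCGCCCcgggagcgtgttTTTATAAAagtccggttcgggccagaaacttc
The *Mif* window holds 1 GC box and 1 cAMP response element, whose first base lies 24 bases before the start. The *Cxcl12* window holds 5 GC boxes. It lies wholly inside the gene as annotated by GENCODE vM39 (117144945 to 117158328, plus strand), so it is not upstream of that start. The *Cxcr4* window holds 3 GC boxes, a TATA box read on both strands, and 1 match to GCGGGGGCG, which overlaps the first of the GC boxes. Of 32851 windows of the same length in the RefSeq table, 32.7% hold a GC box, 2.57% GCGGGGGCG, 1.55% the cAMP response element and 12.4% a TATA box. The hypoxia response core ACGTG, searched for in the same way, is in 16.6% of windows and in none of these 3. A match describes letters in a window, and binding was not measured here.

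*Mif* was the member that differed. It encodes the cytokine and lies on chromosome 10 (ENSMUSG00000033307.8; GRCm39, 75695187 to 75696122, minus strand). Its level was 90.4, 88.6 and 96.8 CPM in ControlΔEC replicates 1, 2 and 3, and 225, 194 and 192 CPM in Wt1KOΔEC replicates 1, 2 and 3. The lowest Wt1KOΔEC library was thus well above the highest ControlΔEC library, and within a genotype the highest library was at most 1.18 times the lowest. The mean rose from 91.9 ± 4.30 to 204 ± 18.9 CPM (SD, n = 3), a log2 fold change of 1.15 (standard error 0.15, 95% interval 0.81 to 1.48; edgeR's quasi-likelihood test, adjusted p = 0.0441). On the linear scale the fitted interval is 1.76- to 2.79-fold. *Mif* was the only member that met the limits for a differentially expressed gene (DEG), a log2 fold change beyond 0.58 in either direction with an adjusted p under 0.05, which 0.0736% of all genes tested met. The adjusted p lies close to the limit: the log2 fold change was 0.77 (adjusted p = 0.210) with offsets for gene length and GC content and 0.99 (adjusted p = 0.0620) when scaled by library size only, and without any one of ControlΔEC replicates 1 and 2 and Wt1KOΔEC replicates 1, 2 and 3 it lay between 1.07 and 1.19 with an adjusted p of 0.0517 to 0.294. DESeq2 gave an adjusted p of 3.5e-13 for *Mif*, by limits that 4.83% of the genes it tested met.

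Counts of *Mif* could in principle be shared with retrocopies or with genes that overlap it. The 9 genes named as *Mif* pseudogenes (*Mif-ps*) held 6 counts in all 6 libraries together, against 31762 counts for *Mif* itself. An antisense transcript, *Gm40697*, overlaps 107 exonic bases of *Mif* on the other strand. It has no row of its own in the count table, and since SMART-seq2 libraries keep no strand, its reads cannot be told apart from those of *Mif* there.

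*Ddt*, the homologue of *Mif*, lies on the same chromosome (ENSMUSG00000001666.9; 75607060 to 75609268). It was at 1.61, 3.14 and 3.99 CPM in ControlΔEC and 6.80, 3.99 and 4.63 CPM in Wt1KOΔEC, in replicates 1, 2 and 3. Wt1KOΔEC replicate 2 sat at the level of ControlΔEC replicate 3, and the difference was within the spread between replicates (log2 fold change 0.82, standard error 0.57, 95% interval -0.46 to 2.10, edgeR adjusted p = 0.618). Counts of *Mif* over those of *Ddt* in the same library, which do not depend on the normalization, were 56.2, 28.2 and 24.3 in ControlΔEC and 33.1, 48.6 and 41.4 in Wt1KOΔEC. These ratios overlapped, with a difference in mean log2 ratio of 0.26 (standard error 0.41; two-sided exact permutation test, p = 0.5, where 3 libraries against 3 cannot give less than 0.1). A difference between *Mif* and *Ddt* in their response was therefore not shown. A protein-coding gene annotated on the same strand, *Gm20441*, shares 232 exonic bases with *Ddt* and had no count.

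**Figure D1:**
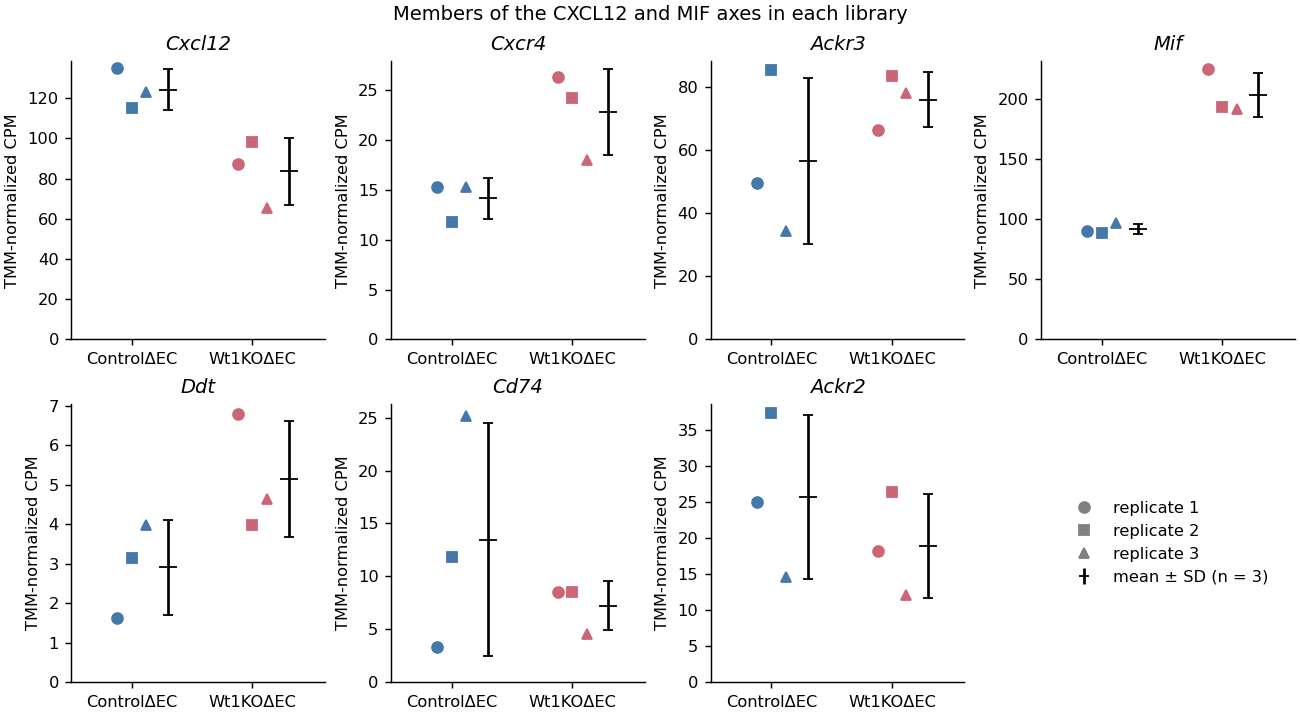
TMM-normalized CPM of the 7 members in each library (vertical axes, linear and from 0), by genotype on the horizontal axis; symbols are single libraries, with replicate numbers by shape, and bars are mean ± SD (n = 3). *Mif*, *Cxcl12* and *Cxcr4* separate the genotypes, with *Mif* at 88.6 to 96.8 CPM in ControlΔEC and 192 to 225 CPM in Wt1KOΔEC, and the other 4 members overlap.

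*Cxcl12*, the chemokine of the axis, had lower values in Wt1KOΔEC. It lies on chromosome 6 (ENSMUSG00000061353.12; 117144945 to 117158328) and was at 135, 115 and 123 CPM in ControlΔEC and at 87.4, 98.1 and 65.5 CPM in Wt1KOΔEC. Every Wt1KOΔEC library lay below every ControlΔEC library. The means were 124 ± 10.0 and 83.7 ± 16.6 CPM (log2 fold change -0.57, standard error 0.18, 95% interval -0.98 to -0.16), and the test across all genes did not call it (edgeR, unadjusted p = 0.0123, adjusted p = 0.258; DESeq2, adjusted p = 0.0594). The estimate itself is just inside the fold change limit of 0.58. The mural cell markers as a sum were also lower, without overlap between genotypes. At an unadjusted p under 0.05, 4 of 8 were lower in Wt1KOΔEC, beside 13.1% of all genes tested in either direction. By its estimate 1 of 8 was higher (*Tagln*, log2 fold change 0.92). None of the 8 was a DEG in edgeR, and DESeq2 called 3. Among ControlΔEC libraries the mural sum was highest in replicate 3 and *Cxcl12* in replicate 1. The pericyte gene *Rgs5*, the marker with the largest difference, was at 165, 26.8 and 164 CPM in ControlΔEC and 25.4, 17.9 and 19.4 CPM in Wt1KOΔEC, and *Pdgfrb*, the PDGF receptor of mural cells, at 64.0, 39.6 and 66.8 and at 15.1, 24.6 and 32.0 CPM, while *Acta2*, smooth muscle actin, had a log2 fold change of -0.04 and the mural *Notch3* one of -0.26. The study counts *Rgs5* and *Kcnj8*, both among these 8 markers, as arterial genes, so the sum is not specific to mural cells. *Abcc9* had the highest mean of the 8 (263 ± 28.5 CPM in ControlΔEC and 197 ± 35.1 CPM in Wt1KOΔEC). *Notch3* (3.49 and 2.92 CPM) and *Tagln* (2.03 and 3.84 CPM) added little to the sum. The part of mural transcripts in the *Cxcl12* values was not tested.

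*Cxcr4*, the signalling receptor for CXCL12 and also a receptor for MIF, lies on chromosome 1 (ENSMUSG00000045382.7; 128515936 to 128520044, minus strand). Its CPM was 15.3, 11.8 and 15.3 in ControlΔEC and 26.3, 24.2 and 18.0 in Wt1KOΔEC, again without overlap. The log2 fold change was 0.69 (standard error 0.25, 95% interval 0.12 to 1.27), which also missed the threshold (edgeR, unadjusted p = 0.0237, adjusted p = 0.302; DESeq2, adjusted p = 0.112). Thus the ligand and its receptor had estimates of opposite sign, neither past the threshold. Across all genes tested, 13.1% had an unadjusted p under 0.05 and 19.3% had no overlap between the genotypes. Against these shares, 3 of the 7 members, *Mif*, *Cxcl12* and *Cxcr4*, met both criteria. For both *Cxcl12* and *Cxcr4* the interval includes values near zero and values beyond the fold change limit.

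*Ackr3*, the scavenging receptor for CXCL12, is also on chromosome 1 (ENSMUSG00000044337.6; 90131689 to 90144473). It varied widely among ControlΔEC libraries, at 49.8, 85.6 and 34.3 CPM, and little among Wt1KOΔEC libraries, at 66.6, 83.6 and 78.1 CPM. ControlΔEC replicate 2 exceeded all Wt1KOΔEC libraries, and the estimate rested on which ControlΔEC libraries were kept: the log2 fold change was 0.43 with all (standard error 0.30, 95% interval -0.25 to 1.10, edgeR adjusted p = 0.624), 0.86 without ControlΔEC replicate 2 and 0.17 without ControlΔEC replicate 3. The ratio of *Cxcr4* to *Ackr3* counts was 0.308, 0.138 and 0.447 in ControlΔEC and 0.395, 0.290 and 0.230 in Wt1KOΔEC. The ratios overlapped (difference in mean log2 ratio 0.16, standard error 0.55; two-sided exact permutation test, p = 0.900), and the sign of the difference turned without ControlΔEC replicate 2 (-0.32) or Wt1KOΔEC replicate 1 (-0.05).

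*Cd74*, the MIF receptor and MHC class II chaperone (ENSMUSG00000024610.16; chromosome 18, 60936899 to 60945731), had the widest spread of the members. Its CPM was 3.33, 11.8 and 25.2 in ControlΔEC and 8.52, 8.56 and 4.51 in Wt1KOΔEC. The highest ControlΔEC library was 7.58 times the lowest, and all Wt1KOΔEC values lay inside that range (log2 fold change -0.90, standard error 0.63, 95% interval -2.32 to 0.52, edgeR adjusted p = 0.623). Without ControlΔEC replicate 3 the log2 fold change was -0.07, and without ControlΔEC replicate 1 it was -1.36. Of the class II genes, *H2-Aa*, *H2-Ab1* and *H2-Eb1*, shown because of their values, were also highest in ControlΔEC replicate 3, whereas *H2-DMa* (1.63, 2.03 and 1.07 CPM in ControlΔEC) and *H2-DMb1* (2.08, 0.00 and 0.451 CPM) were not. *H2-Aa*, which encodes a class II alpha chain, was at 0.380, 1.38 and 14 CPM in ControlΔEC and 0.819, 3.62 and 0.198 CPM in Wt1KOΔEC. *H2-Ab1*, its beta chain, was at 1.92, 0.00 and 11 CPM and at 2.25, 2.30 and 0.0396 CPM, the last below the floor of detection. *H2-Eb1* was at 0.00, 0.00 and 10.2 CPM in ControlΔEC and at 1.33, 4.46 and 0.00 CPM in Wt1KOΔEC. The macrophage sum did not follow this order, being lowest of the ControlΔEC libraries in replicate 3 (424 CPM) and highest in replicate 2 (1150 CPM). All 14 macrophage markers had lower estimates in Wt1KOΔEC, with a median log2 fold change of -0.77. At an unadjusted p under 0.05 there were 5, beside 13.1% of all genes tested in either direction. None of the 14 was a DEG in edgeR, and DESeq2 called 2, *Csf1r* (adjusted p = 0.0102) and *Adgre1* (0.0129). The source of *Cd74* transcripts among the sorted cells was not tested.

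**Figure D2:**
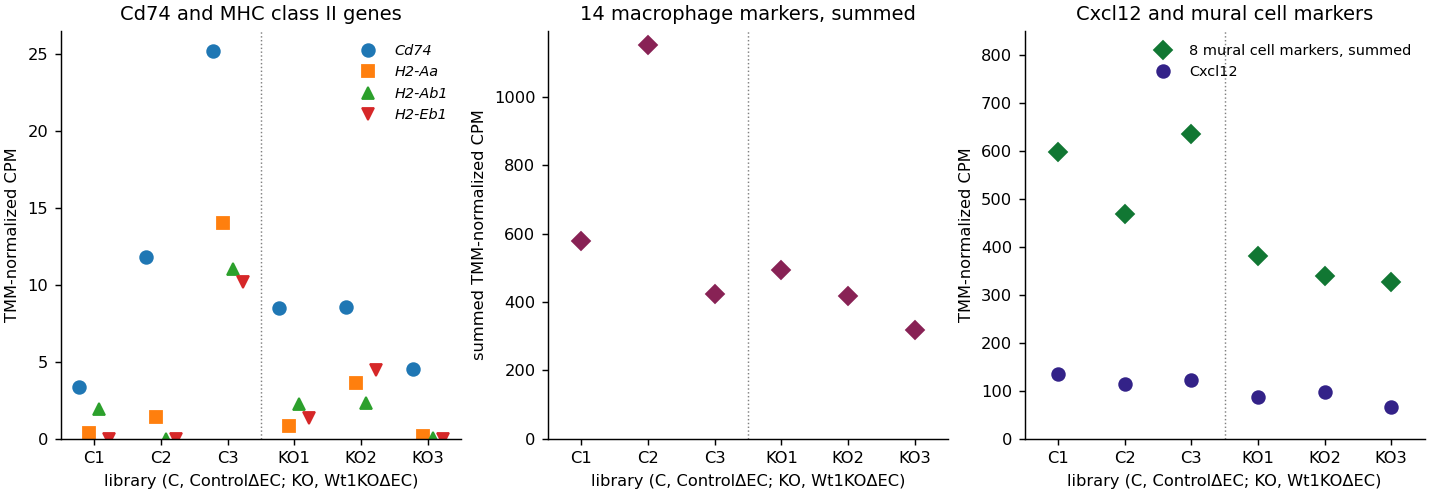
*Cd74* with 3 MHC class II genes (left), the summed macrophage markers (middle) and *Cxcl12* with the summed mural cell markers (right), as TMM-normalized CPM (vertical axes, from 0) in each library (horizontal axis; the dotted line divides ControlΔEC from Wt1KOΔEC). *Cd74* and these class II genes peak in ControlΔEC replicate 3, at 25.2 CPM for *Cd74*, the macrophage sum peaks in ControlΔEC replicate 2, at 1150 CPM, and both *Cxcl12* and the mural sum are lower in all 3 Wt1KOΔEC libraries.

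*Ackr2*, the CC chemokine scavenger on chromosome 9 (ENSMUSG00000044534.9; 121727421 to 121741249), was at 25, 37.4 and 14.6 CPM in ControlΔEC and 18.2, 26.4 and 12.1 CPM in Wt1KOΔEC. The genotypes overlapped (log2 fold change -0.44, standard error 0.39, 95% interval -1.32 to 0.44, edgeR adjusted p = 0.724). The estimate was -0.06 without ControlΔEC replicate 2 and -0.76 without Wt1KOΔEC replicate 2, the libraries in which it was highest within each genotype. The 7 lymphatic EC markers stood the other way around, at a summed 336 to 373 CPM in ControlΔEC and 467 to 685 CPM in Wt1KOΔEC. At an unadjusted p under 0.05, 3 of 7 were higher, beside 13.1% of all genes tested in either direction. None of the 7 was a DEG in edgeR, and DESeq2 called 3, *Ccl21a* (adjusted p = 6.4e-07), *Mmrn1* (0.00419) and *Prox1* (0.0388). The 9 arterial EC markers overlapped between genotypes, at 1521 to 1774 and 1298 to 1695 CPM.

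**Figure D3:**
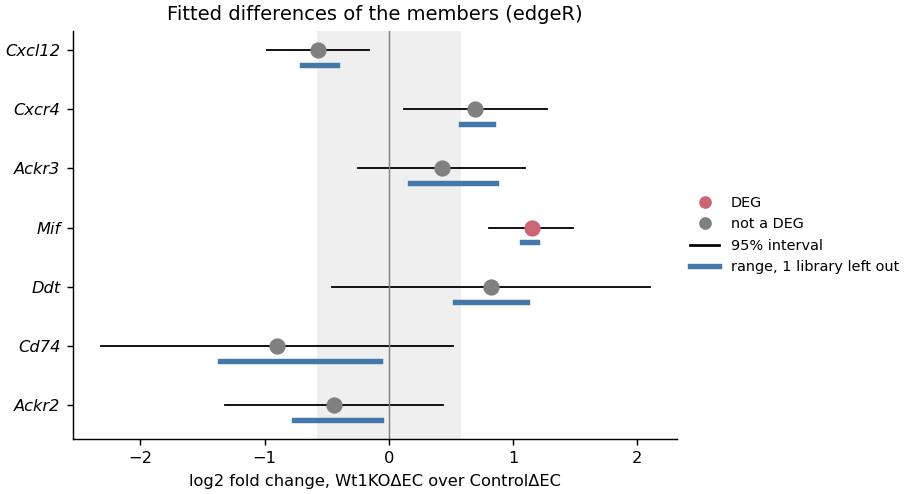
Fitted log2 fold change of each member (horizontal axis, Wt1KOΔEC over ControlΔEC, edgeR) with its 95% interval (black) and, beneath it, the range over fits with 1 library left out (blue); grey shading spans the fold change limit of 0.58 in either direction. Only the *Mif* interval, 0.81 to 1.48, lies wholly outside the shading, while *Ackr3*, *Ddt*, *Cd74* and *Ackr2* have intervals that cross 0.

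As a group the 7 members did not move one way: 4 fitted log2 fold changes were positive and 3 negative, with a median of 0.43 beside -0.027 over all genes tested. Levels between genes were compared only per length, as CPM per kb of merged exons. In ControlΔEC the order by mean was *Mif* (111 ± 5.17), *Cxcl12* (14.9 ± 1.20), *Cxcr4* (7.77 ± 1.13), *Ackr3* (6.98 ± 3.25), *Ackr2* (5.58 ± 2.48), *Cd74* (5.35 ± 4.39) and *Ddt* (3.06 ± 1.27 CPM per kb, SD, n = 3). *Mif* stood above 98.6% of genes tested on this scale and *Ddt* above 59.6%. *Mif* was above *Cxcl12*, *Cxcl12* above *Cxcr4* and *Ackr3* above *Ackr2* in all 3 libraries, whereas *Cxcr4* and *Ackr3*, *Ackr2* and *Cd74*, and *Cd74* and *Ddt* changed places in 1 library. In Wt1KOΔEC the order was *Mif* (245 ± 22.7), *Cxcr4* (12.5 ± 2.39), *Cxcl12* (10.0 ± 1.99), *Ackr3* (9.39 ± 1.07), *Ddt* (5.40 ± 1.55), *Ackr2* (4.11 ± 1.56) and *Cd74* (2.86 ± 0.925 CPM per kb). *Cxcr4* thus stood above *Cxcl12* in all 3 Wt1KOΔEC libraries and below it in all 3 ControlΔEC libraries. That change of places depends on the length used: per kb of the canonical transcript, *Cxcl12* (14.8 ± 2.94) stayed above *Cxcr4* (12.5 ± 2.39) in all 3 Wt1KOΔEC libraries. In ControlΔEC the canonical length also put *Ackr3* (18.4 ± 8.55) and *Cd74* (9.41 ± 7.72) ahead of *Cxcr4* (7.77 ± 1.13), while *Mif* and *Cxcl12* kept the first places and *Ddt* the last.

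Genes whose profile over the 6 libraries was most like that of a member were sought among 8466 genes with a mean of at least 10 CPM, by the root mean square (RMS) difference of centred log2(CPM + 0.5). The likeness of 6 points that share libraries and depth is a description. The closest to *Mif* were *Rps29*, a ribosomal protein gene (RMS difference 0.0821), *Gpr182*, an atypical chemokine receptor of endothelium (0.0928), and *Ednrb*, an endothelin receptor (0.105), where the median gene differed from *Mif* by 0.626. *Cxcl12* was closest to *Ercc5* (0.0705), a DNA repair endonuclease gene, and *Mycbp2* (0.0732). *Cxcr4* was closest to *Cox19* (0.0871), *Grcc10* (0.0928) and *Acot7* (0.0985). *Ackr3* was closest to *Rab3il1* (0.0818), *Cbx6* (0.101) and *Pdf* (0.107). *Ackr2* was closest to *Gja5* (0.131), a connexin gene of arterial ECs, *Tmem186* (0.153) and *Ubox5* (0.178). For *Cd74* no gene came so near, the closest being *Ints6* (0.318), *Dop1b* (0.378) and *Wrn* (0.398), and *Ddt* was below the level set for this measure.

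Ligands of the wider chemokine family were then set beside *Cxcl12*. Of 24 CC chemokine ligands, 14 were tested, with a median log2 fold change of 0.89. Of these estimates, 10 were positive and 4 negative. An unadjusted p under 0.05 was found for 5, all higher in Wt1KOΔEC, beside 13.1% of all genes tested in either direction. *Ccl21a* and its copy *Gm13304* are both among these 5. *Ccl24* went the other way without overlap, at 3.51 ± 0.945 CPM in ControlΔEC and 1.07 ± 0.621 CPM in Wt1KOΔEC (-1.71, edgeR adjusted p = 0.392). None of the 14 was a DEG in edgeR. *Ccl21a*, a CCR7 ligand of lymphatic ECs, was at 70.2, 40.4 and 37.0 CPM in ControlΔEC and 193, 195 and 125 CPM in Wt1KOΔEC (log2 fold change 1.80, standard error 0.28, edgeR adjusted p = 0.0967). *Gm13304*, a near-identical copy, was at 5.45, 1.13 and 4.78 CPM and at 58.7, 24.8 and 29.9 CPM (log2 fold change 3.32, edgeR adjusted p = 0.108). Reads can be split between these copies, and the 3 copies with a row in the table, *Ccl21a*, *Ccl21b* and *Gm13304*, summed to 75.7, 41.5 and 43.6 CPM in ControlΔEC and 252, 220 and 155 CPM in Wt1KOΔEC, which did not overlap (3.90-fold; p = 0.1 by exact permutation, two-sided, as low as this design goes). *Ccl21a* is one of the lymphatic markers counted above. Of the monocyte attractant *Ccl2* there were 10.6, 8.47 and 13.7 CPM in ControlΔEC and 31.8, 19.9 and 20.2 CPM in Wt1KOΔEC (log2 fold change 1.14, edgeR adjusted p = 0.209), and the same direction held for *Ccl3* (1.45, edgeR adjusted p = 0.247) and *Ccl5* (2.64, edgeR adjusted p = 0.296). *Ccl5* was low and uneven, at 0.737, 0.507 and 0.520 CPM in ControlΔEC and 7.57, 0.898 and 2.57 CPM in Wt1KOΔEC. In DESeq2 all 5 of these CC ligands had an adjusted p under 0.05, from 6.4e-07 for *Ccl21a* to 0.0475 for *Ccl5*.

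The other CXC, CX3C and XC ligands did not share a direction. Of 16 genes, 11 were tested, with 1 higher and 2 lower at an unadjusted p under 0.05, a median log2 fold change of -0.46 and no DEG in edgeR or DESeq2. *Cxcl10*, the interferon-induced CXCR3 ligand, was at 12.5, 3.79 and 11.6 CPM in ControlΔEC and 42.9, 12.9 and 17.8 CPM in Wt1KOΔEC (log2 fold change 1.40, edgeR adjusted p = 0.329), and without Wt1KOΔEC replicate 1 the estimate was 0.72 (edgeR adjusted p = 0.781). *Cx3cl1*, or fractalkine, was at 77.3, 31.0 and 56.4 CPM and at 28.0, 23.5 and 32.2 CPM (-0.98, edgeR adjusted p = 0.258; -0.64 without ControlΔEC replicate 1), and its genotypes overlapped. The platelet chemokine *Pf4* was at 15.2, 19.5 and 11.4 CPM and at 10.6, 9.80 and 7.32 CPM (-0.74, edgeR adjusted p = 0.362).

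Among receptors beyond the members, 8 of 21 were tested, with a median log2 fold change of -0.20 and no DEG in edgeR or DESeq2. *Ackr1*, the atypical receptor that marks venular endothelium, was the one with an unadjusted p under 0.05, at 1.47, 6.65 and 0.936 CPM in ControlΔEC and 23.5, 8.03 and 9.41 CPM in Wt1KOΔEC (log2 fold change 2.17, standard error 0.76, edgeR adjusted p = 0.283). The *Ackr1* estimate was 1.52 without Wt1KOΔEC replicate 1 and 3.49 without ControlΔEC replicate 2. *Cx3cr1*, the fractalkine receptor of macrophages, overlapped, at 8.96, 45.7 and 20.1 CPM and 13.1, 22.1 and 9.81 CPM, and was highest in the library with the highest macrophage sum. Of 15 genes of CXCR4 signalling and desensitisation, all tested, only *Jak2*, a tyrosine kinase, had an unadjusted p under 0.05, at 43.0, 42.6 and 62.5 CPM in ControlΔEC and 32.2, 24.1 and 21.6 CPM in Wt1KOΔEC (-0.93, edgeR adjusted p = 0.209; DESeq2 adjusted p = 0.0135). The 3 genes of this list with the highest mean CPM overlapped between genotypes, namely the GTPase *Rac1* (829 ± 65.5 and 803 ± 19.3 CPM) and the G protein subunits *Gnai3* (232 ± 43.1 and 202 ± 24.1 CPM) and *Gnai2* (215 ± 53.3 and 208 ± 42.9 CPM). Of 10 regulators and proteases of CXCL12, 9 were tested, and *Epas1*, which encodes HIF2α, had an unadjusted p under 0.05, at 606, 497 and 488 CPM and at 388, 353 and 266 CPM (-0.66, edgeR adjusted p = 0.217; DESeq2 adjusted p = 0.0149). *Hif1a*, encoding the related HIF1α, was at 342 ± 30.9 and 298 ± 22.0 CPM, with overlap.

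**Figure D4:**
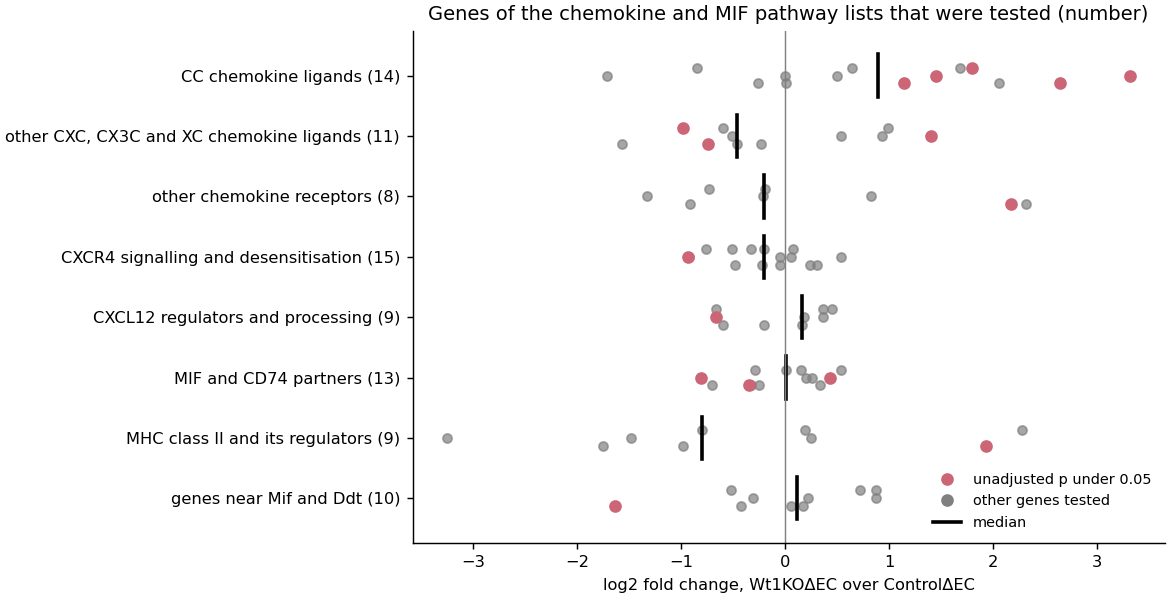
Log2 fold change (horizontal axis, Wt1KOΔEC over ControlΔEC, edgeR) of each gene tested in 8 lists around the CXCL12 and MIF axes, with the number of genes plotted in parentheses; red points have an unadjusted p under 0.05, and black bars are medians of the genes plotted. *Ciita*, without a count in Wt1KOΔEC, is left out; the CC ligands have the highest median, 0.89, and all 5 of their red points lie to the right of 0.

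Partners and processing enzymes of MIF and CD74 had estimates in both directions. Of 14 genes 13 were tested, with 1 higher and 2 lower at an unadjusted p under 0.05, a median log2 fold change of 0.01 and no DEG in edgeR or DESeq2. *Cd44*, the signalling partner of CD74, was at 108, 109 and 126 CPM in ControlΔEC and 98.1, 86.7 and 83.9 CPM in Wt1KOΔEC (log2 fold change -0.35, standard error 0.15, edgeR adjusted p = 0.365). *Ctss*, the cathepsin that trims the invariant chain, was at 46.4, 94.1 and 54.7 CPM and at 50.7, 28.5 and 31.8 CPM (-0.81, edgeR adjusted p = 0.323; -0.45 without ControlΔEC replicate 2), highest in the library with the highest macrophage sum. The disulfide isomerase gene *Pdia3* was at 680, 504 and 685 CPM and at 833, 852 and 830 CPM (0.43, edgeR adjusted p = 0.306). The chaperone gene *Hsp90ab1*, with the highest mean CPM of the list, was at 3391 ± 362 and 3893 ± 254 CPM, with overlap. Of 13 MHC class II genes and regulators, 10 were tested, 1 higher and 1 lower at an unadjusted p under 0.05, with a median of -0.89 (also with *Ciita* at the bound that the floor of 3 counts per library sets) and no DEG in edgeR or DESeq2. *Rfx5*, which binds class II promoters, was at 2.35, 0.588 and 2.39 CPM in ControlΔEC and 3.33, 9.54 and 7.44 CPM in Wt1KOΔEC (1.93, edgeR adjusted p = 0.294). *Ciita*, the class II transactivator, was at 2.07 and 0.901 CPM in ControlΔEC replicates 2 and 3 and had no count in ControlΔEC replicate 1 or in Wt1KOΔEC.

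Finally, the neighbours of *Mif* and *Ddt* on chromosome 10 were examined. Of 14 genes named there, 10 were tested, with 1 at an unadjusted p under 0.05, a median log2 fold change of 0.12 and no DEG in edgeR. That gene was *Ggt5*, a gamma-glutamyl transferase gene, at 35.4, 20.8 and 39.9 CPM in ControlΔEC and 8.85, 16.3 and 5.77 CPM in Wt1KOΔEC (-1.63, standard error 0.41, edgeR adjusted p = 0.198). *Ggt5* was called by DESeq2 (adjusted p = 0.00656) and by edgeR without the filter on low counts (adjusted p = 0.00927). *Smarcb1*, a chromatin remodeller subunit with the highest mean CPM of these genes, was at 89.1, 81.3 and 91.5 CPM and at 103, 88.4 and 103 CPM (0.17, edgeR adjusted p = 0.725). *Mmp11* was at 2.60 ± 1.31 and 4.75 ± 0.789 CPM (0.87, edgeR adjusted p = 0.621). *Chchd10* was at 1.82 ± 1.12 and 3.33 ± 0.107 CPM (0.87, edgeR adjusted p = 0.702). Both were higher in every Wt1KOΔEC library than in any ControlΔEC library. Of the 10 estimates, 6 were positive and 4 negative. In 3 of the 10 genes the genotypes did not overlap, beside 19.3% of all genes tested. Of this stretch only *Mif* met the edgeR limits for a DEG, which 0.0736% of all genes tested met.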

How the data were processed

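RNA from mGFP-sorted cells was converted to SMART-seq2 libraries with Nextera XT and sequenced in paired-end mode. The authors mapped the reads with STAR 2.7.8a and quantified genes with RSEM 1.3.0. The study's methods give GRCm39 and GENCODE vM27, whereas the submitters' processing notes list GRCm38. The authors deposited RSEM expected counts, unnormalized and already rounded to integers, and the strand setting is not given in the sources used here.

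Analysis used edgeR 4.0.16 under R 4.3.3, with TMM normalization, a minimum of 10 counts in 2 or more libraries, the quasi-likelihood F test with genotype as the only term, and Benjamini-Hochberg adjustment over all genes tested. The study's methods name DESeq2, which was an alternative here (version 1.42.0, default settings), as were limma-voom (limma 3.58.1), RLE, upper-quartile and library size scaling, other filters, a replicate block, length and GC offsets, and leaving out each library. Standard errors were obtained by dividing the absolute log2 fold change by the square root of F, and 95% intervals use the fit's degrees of freedom. Steps were tested on simulated counts. The p-values measure the spread between these 3 libraries per genotype. Positions and lengths come from GENCODE vM39 on GRCm39, and 98.8% of genes matched. CPM per kb of canonical transcript was added after the data had been seen.

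Named genes are the members, *Wt1*, the genes of each list with the smallest p (up to 4) or the highest mean CPM (3), *Mif* pseudogenes and, for each member, the 3 genes most like it (1 of which is not reported here); *Ccl5*, *H2-Ab1*, *H2-Eb1*, *Smarcb1*, *H2-DMa*, *Rgs5*, *Pdgfrb*, *Acta2*, *Notch3*, *Tagln*, *Prox1*, *Mmrn1* and the promoter motifs were picked after their values were seen. *Kcnj8*, *Abcc9*, *Ccl24*, *Csf1r*, *Adgre1*, *Col1a1* and *Hbb-y* were also picked after their values were seen. The members and the lists were chosen with earlier results of these data known. Protein sequences were not used here.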

Additional observations from a re-analysis of the deposited data

How the results depend on the processing

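No member changed sign in any of its 16 alternatives (17 for *Mif*, with its pseudogene copies added to it), and *Mif* was the only member called in any. The log2 fold change of *Mif* fell short of a call when scaled by library size only (0.99, adjusted p = 0.0620), with length and GC offsets (0.77, adjusted p = 0.210), with the replicate block (1.14, adjusted p = 0.102) and with offsets and the replicate block together (0.79, adjusted p = 0.214), so that 0 members were called there. With 1 library left out at a time, *Mif* lay between 1.07 and 1.19 and 0 to 1 members were called. Same-numbered libraries correlated by 0.0566, 0.00448 and 0.0201 in their deviations from the genotype means, and differently numbered ones by -0.0429 to 0.025. With 3 libraries per genotype, these values cannot decide whether the replicate numbers pair the libraries. Scaling by library size only moved the median log2 fold change of all genes from -0.03 to -0.18, against which the members' values shift alike. The number of DEGs was 12 in the fit reported, 767 with DESeq2, 296 without a filter, 113 with at least 10 counts in every library, 5 with the replicate block, 6 with offsets, 6 with offsets and the replicate block, and 2 to 37 with 1 library left out; genes called in the pathway lists numbered 0 in the fit reported, 8 with DESeq2, 3 without a filter and 2 with at least 10 counts in every library. Among genes named by smallest p, the sign turned for *Cx3cr1* without ControlΔEC replicate 2 (0.05; range with 1 library left out -1.13 to 0.05) and for *H2-Aa* without ControlΔEC replicate 3 (0.81; range -3.34 to 0.81). The difference in the log2 ratio of *Cxcr4* to *Ackr3* lay between -0.32 (without ControlΔEC replicate 2) and 0.53 (without ControlΔEC replicate 3), and was -0.05 without Wt1KOΔEC replicate 1. That of *Mif* to *Ddt* stayed positive in all its alternatives. With 3 libraries in each genotype the replicate block cannot alter either ratio difference (0.26 for *Mif* to *Ddt*, 0.16 for *Cxcr4* to *Ackr3*), so it was no check on them. The cause of these changes was not tested. *Ddt*, *Cd74* and the class II genes are limited by low counts.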
